A study of Mus musculus with 4 samples.

Results

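The genes described here were long non-coding RNAs of 2 kinds, small nucleolar RNA (snoRNA) host genes and nuclear-retained transcripts, measured in mouse myeloid progenitors after loss of *Bcor*. Gene symbol chose them, as the 9 listed genes *Gas5*, *Snhg1*, *Snhg3*, *Snhg5*, *Snhg6*, *Snhg8*, *Snhg12*, *Malat1* and *Neat1*. Of these, 7 were among the 12067 genes in the count table, namely 5 of the 7 snoRNA host genes and both nuclear RNAs, and all 7 passed the filter on low counts. *Snhg1* and *Snhg8* were not in the table and have no value here.

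The libraries came from donor-derived KL cells, the lineage-negative, cKit-positive and Sca1-negative fraction of bone marrow, sorted 20 weeks after whole marrow was given to PTPRCA recipients. Donors of the 2 BcorΔE9-10 libraries were scl-Cre-ERT +; Bcorfl/y, and those of the 2 BcorWT libraries were Bcorfl/y without the Cre, so that all donors carried the floxed allele. Per the methods, donors were treated with tamoxifen, which activates a Cre expressed in blood stem cells from a *Tal1* (SCL) stem cell enhancer and removes *Bcor* exons 9 and 10, and recipients were female, sub-lethally irradiated and told apart from donor cells by CD45.1 and CD45.2. Each library was a Quant-seq 3′ library, in which priming from the poly-A tail places reads close to the 3′ end of each transcript. The labels do not say whether the libraries of a group came from separate donors or recipients, so p-values measure only the spread between these samples.

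BCOR is a subunit of a variant Polycomb repressive complex that ubiquitinates histone H2A. snoRNA host genes carry snoRNAs in their introns, which are freed when the transcript is spliced and then guide chemical modification or cleavage of ribosomal RNA. The spliced host RNA codes for little or no protein and is often removed by nonsense-mediated decay, and many host genes begin with a pyrimidine-rich start that they share with ribosomal protein genes. *Malat1* RNA gathers in nuclear speckles, where splicing factors are stored, and *Neat1* RNA is the scaffold of paraspeckles.

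In the transcript with most exons of each host, all annotated snoRNAs lay in introns, as the plot of exons and snoRNA genes shows. Other annotated transcripts of the hosts were not checked. *Gas5* (ENSMUSG00000053332) lies at chr1:161034422-161038539 on the plus strand of GRCm38 (mm10) and holds 9 snoRNA places in GENCODE M21. *Snhg12* (ENSMUSG00000086290, chr4:132308623-132311024, plus strand) holds 4. *Snhg3* (ENSMUSG00000085241, chr4:132348014-132353686, minus strand) holds the pair *Snora73a* and *Snora73b*, and *Snhg5* (ENSMUSG00000097195, chr9:88521050-88522929, minus strand) holds the pair *Snord50a* and *Snord50b*. *Snhg6* (ENSMUSG00000098234, chr1:9941959-9944118, minus strand) holds *Snord87* alone. The nuclear RNAs are neighbours on chromosome 19, with *Malat1* (ENSMUSG00000092341) at chr19:5795690-5802672 and *Neat1* (ENSMUSG00000092274) at chr19:5824708-5845478, both on the minus strand and 22035 bases apart. *Snhg12* and *Snhg3* are 36989 bases apart on opposite strands.

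**Figure D1:**
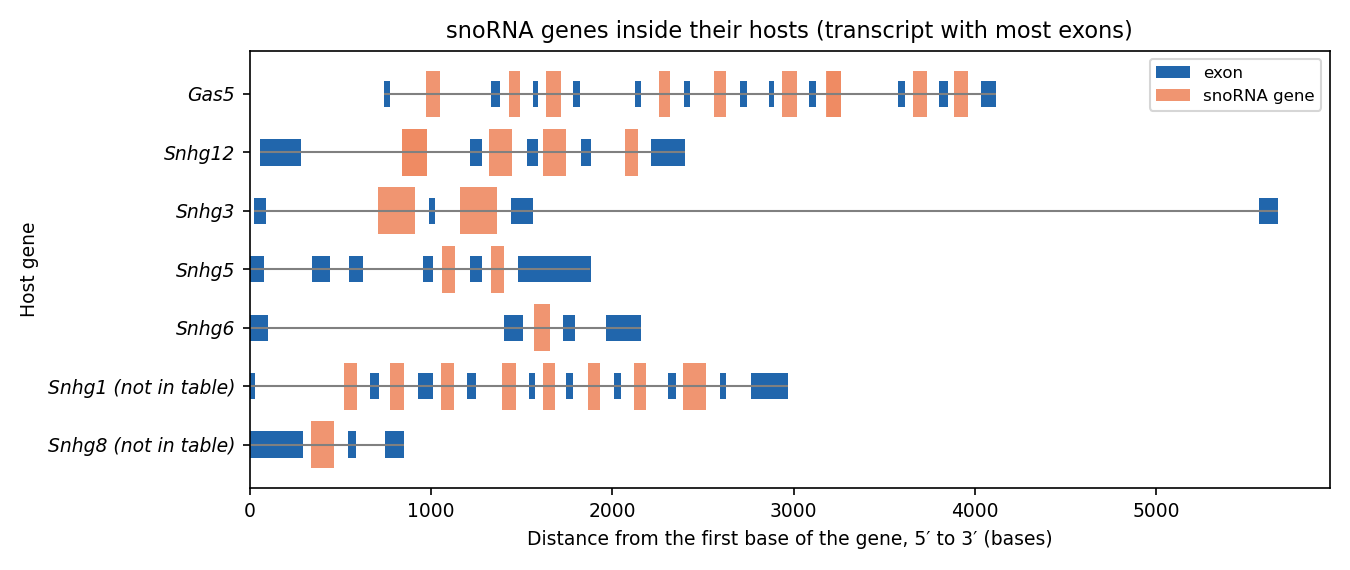
Exons (blue) and annotated snoRNA genes (orange) along the 7 listed host genes, for the transcript with most exons, against distance in bases from the first base of each gene. Each snoRNA gene lies between exons, and *Gas5* and *Snhg1* hold the most.

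The 3 box C/D snoRNAs below belong to *Snhg5* and *Snhg6* and are shown because their counts are set beside those of the hosts. Capitals mark TGATGA, the core of box C, in the first 20 bases and CTGA, box D, in the last 20, both read on the transcript's strand only. These letters were held by 309 of 1507 annotated snoRNA transcripts (20.5%). *Snord50a* (chr9:88521529-88521600, minus strand) and *Snord50b* (chr9:88521797-88521868, minus strand) differ by 1 of 72 bases, C50A from the first to the second, counted from 1 at the 5′ end, so reads of the pair are hard to tell apart. *Snord87* lies at chr1:9942463-9942549 on the minus strand.
Snord50a: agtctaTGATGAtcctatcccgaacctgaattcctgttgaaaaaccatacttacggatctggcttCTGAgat
Snord50b: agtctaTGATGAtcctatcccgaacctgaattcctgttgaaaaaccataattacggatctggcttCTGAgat
Snord87: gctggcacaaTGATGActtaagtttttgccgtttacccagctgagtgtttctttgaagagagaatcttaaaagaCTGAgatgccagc

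The last 60 bases of each measured transcript are shown because reads of these libraries lie close to 3′ ends that carry a poly-A tail. Which of the ends shown carry such a tail, and where the reads fell, was not tested. Capitals mark AATAAA or ATTAAA, the hexamers that direct poly-A addition, searched on the transcript's strand. Among 9100 annotated lincRNA transcripts, 3650 (40.1%) hold one in the same window. For each gene the transcript reaching farthest 3′ was taken. For *Snhg3* and *Neat1* a transcript ending nearer the gene's start was added after the farthest was seen to hold no hexamer. *Neat1* has a long form of 20771 bases and a short form of 3004 bases in the annotation. The *Snhg6* end (chr1:9941959-9942018) lies within the 127 bases that *Snhg6* shares with *Mcmdc2*, a coding gene of the opposite strand.
Gas5 3′ end: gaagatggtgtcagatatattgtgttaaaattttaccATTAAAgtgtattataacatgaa
Snhg3 farthest 3′ end: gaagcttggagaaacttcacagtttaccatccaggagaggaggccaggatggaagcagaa
Snhg3 nearer 3′ end: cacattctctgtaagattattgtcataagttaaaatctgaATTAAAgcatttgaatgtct
Snhg5 3′ end: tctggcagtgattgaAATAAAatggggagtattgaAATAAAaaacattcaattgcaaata
Snhg6 3′ end: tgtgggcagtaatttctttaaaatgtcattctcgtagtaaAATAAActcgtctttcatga
Snhg12 3′ end: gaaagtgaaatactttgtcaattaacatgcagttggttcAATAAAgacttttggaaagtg
Malat1 3′ end: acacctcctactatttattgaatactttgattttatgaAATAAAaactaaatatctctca
Neat1 long form: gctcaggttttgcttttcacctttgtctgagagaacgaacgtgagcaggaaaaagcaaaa
Neat1 short form: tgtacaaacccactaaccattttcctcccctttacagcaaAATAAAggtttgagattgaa

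Promoters of 4 measured host genes are shown, since the start of a host gene is one of its known features. RefSeq promoter entries (GRCm38.p6) matched 7 of the 9 listed genes, *Snhg6* and *Neat1* having none, and *Gas5* had a pair of starts, 8 promoters in all. The first *Gas5* start held neither motif searched, and the second is shown. Each run covers 60 bases before to 30 bases after the annotated start, with capitals for TATA from 40 to 21 bases before it and for CTTT, a short pyrimidine run, from 5 bases before to 15 after it. TATA reads the same on both strands and was held by 1755 of 32851 promoters (5.34%) and by 4 of the 8 promoters. CTTT on the transcribed strand was held by 2513 (7.65%) and by 4 of the 8 (on either strand 4822, or 14.7%, and 4 of the 8). Both were held by 175 promoters (0.533%) and by 3 of the 8, those of *Snhg8*, *Snhg12* and the second *Gas5* start. *Snhg3* held neither motif in these windows, and *Snhg5* held CTTT alone. The *Snhg5* run does hold a TATA that crosses the near edge of the window, and the *Snhg3* run holds one after the annotated start. Neither was counted, so the TATA counts depend on the window and the annotated start. The positions are chr1:161035106-161035195 (plus) for *Gas5*, chr4:132308618-132308707 (plus) for *Snhg12*, chr9:88522868-88522957 (minus) for *Snhg5* and chr4:132353657-132353746 (minus) for *Snhg3*.
Gas5 promoter: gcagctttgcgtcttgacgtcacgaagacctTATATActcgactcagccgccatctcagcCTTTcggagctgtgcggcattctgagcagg
Snhg12 promoter: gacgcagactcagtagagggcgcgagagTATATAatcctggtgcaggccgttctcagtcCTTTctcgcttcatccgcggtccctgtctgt
Snhg5 promoter: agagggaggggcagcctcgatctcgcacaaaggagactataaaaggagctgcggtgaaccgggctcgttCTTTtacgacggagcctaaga
Snhg3 promoter: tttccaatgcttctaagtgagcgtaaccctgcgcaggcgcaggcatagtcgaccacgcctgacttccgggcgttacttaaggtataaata

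The libraries held 5058140 and 6253100.5 counts for BcorΔE9-10 replicates 1 and 2 and 3825289.5 and 4992205 counts for BcorWT replicates 1 and 2. At these depths 3 counts corresponded to between 0.489 and 0.876 CPM, the count per library size as scaled with edgeR's TMM factors. *Bcor* had 104 and 113 counts in the BcorΔE9-10 libraries and 58 and 79 in the BcorWT libraries. These counts do not check the genotype, because reads of a 3′ library are expected to lie 3′ of the deleted exons. Where the *Bcor* reads fell was not tested. BcorWT replicate 2 stood apart in the rRNA-like transcript *Gm42418*, with 13479 CPM against 145830 to 311437 CPM in the other libraries. *Kit*, which the sort selected, had 29.4 to 61.9 CPM, and 12 of 12 myeloid progenitor markers were in the table with a summed level of 8261 to 10902 CPM in BcorΔE9-10 and 11193 to 11218 CPM in BcorWT. All 10 mature neutrophil markers were also in the table, with 63439 and 155309 CPM in BcorΔE9-10 and 94511 and 143607 CPM in BcorWT. Mast cell, basophil and eosinophil markers (7 of 8 in the table) summed to 267 and 231 CPM in BcorΔE9-10 and 563 and 711 CPM in BcorWT, and 5 of the 7 were lower at an unadjusted p under 0.05, where 4.42% of all genes had such a p in either direction. The part of these cells in the values below was not tested, and in sorted bulk samples fewer cells of a type and less RNA per cell cannot be told apart.

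To ask whether loss of *Bcor* was accompanied by a change in these RNAs, BcorΔE9-10 libraries were compared with BcorWT libraries. None of the 7 measured genes differed at an adjusted p under 0.05 by edgeR's quasi-likelihood test, where 2 of 12067 genes (0.0166%) did, and none had an unadjusted p under 0.05, where 533 genes (4.42%) did. DESeq2 and limma-voom likewise called none of the 7, and with all 4 libraries none of the 7 had an unadjusted p under 0.05 in those fits. In 3 of the 7, *Snhg12*, *Malat1* and *Neat1*, the groups did not overlap, which held for 4085 of all genes (33.9%). Fitted differences were higher in BcorΔE9-10 for 3 genes and lower for 4, with a median log2 fold change of −0.12 against −0.03 over all genes. This split turned to 4 higher and 3 lower with library totals only, with a replicate block and with limma-voom, where the median was 0.0064, 0.22 and 0.22.

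**Figure D2:**
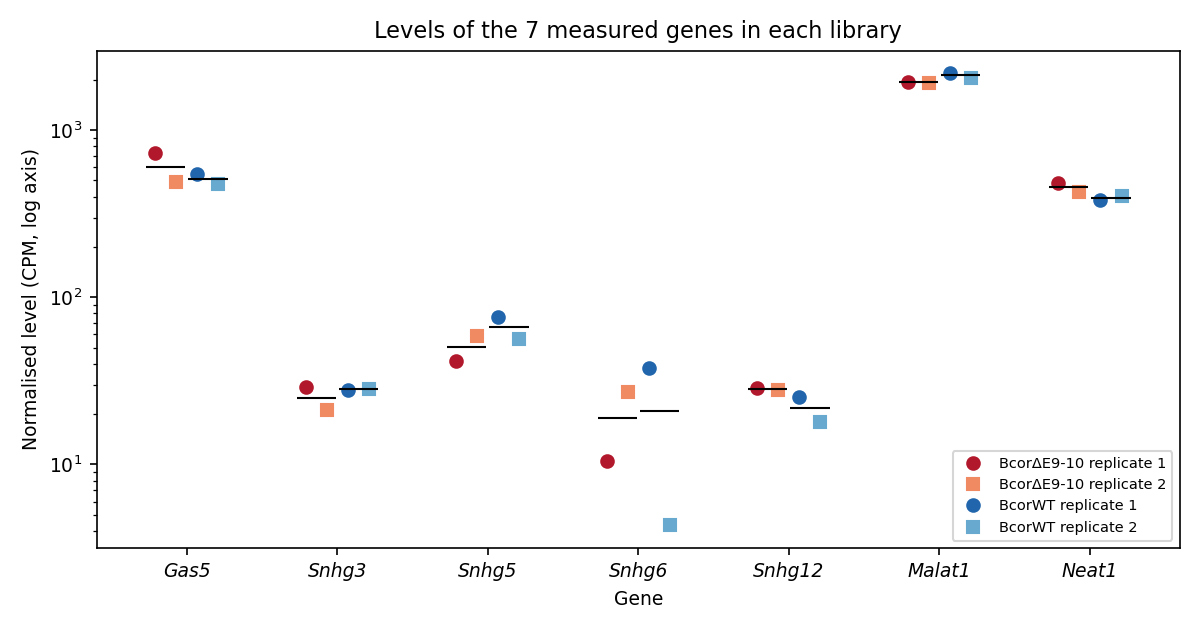
Normalised level (CPM, log axis) of the 7 measured genes in each library, with bars at group means (n = 2). *Snhg6* spanned 4.33 to 37.7 CPM with both extremes in BcorWT, whereas the 4 *Malat1* points lay between 1920 and 2185 CPM.

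*Gas5*, a growth arrest-associated transcript and the host with the most snoRNAs, had 724 and 486 CPM in BcorΔE9-10 and 543 and 473 CPM in BcorWT (3920, 2981, 1858 and 2513 counts). BcorΔE9-10 replicate 1 was the highest library and the remaining 3 lay close together, with BcorΔE9-10 replicate 2 inside the BcorWT range. Group means were 605 ± 169 and 508 ± 49.3 CPM (SD, n = 2), and the log2 fold change was 0.25 (standard error 0.35, adjusted p = 0.960), with a 95% interval from 0.678-fold to 2.09-fold. Without BcorΔE9-10 replicate 1 the estimate was −0.063 and without BcorΔE9-10 replicate 2 it was 0.52, so its direction rested on a single library.

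*Snhg12*, which hosts *Snora16a*, *Snora44*, *Snora61* and *Snord99*, had 28.6 and 27.9 CPM in BcorΔE9-10 and 25.4 and 18.1 CPM in BcorWT (155, 171, 87 and 96 counts). Both BcorΔE9-10 libraries were above both BcorWT libraries, yet the gap between the nearest pair was smaller than the distance between the BcorWT libraries. The means were 28.3 ± 0.546 and 21.7 ± 5.19 CPM, with a log2 fold change of 0.38 (standard error 0.34, adjusted p = 0.945) and an interval from 0.755-fold to 2.26-fold. It remained above 0 with each library left out, from 0.15 without BcorWT replicate 2 to 0.64 without BcorWT replicate 1.

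*Snhg3*, the host of the *Snora73* (U17) pair that takes part in cleavage of the ribosomal RNA precursor, had 29.0 and 21.2 CPM in BcorΔE9-10 and 28.0 and 28.4 CPM in BcorWT (157, 130, 96 and 151 counts). The groups overlapped, and BcorΔE9-10 replicate 2 alone lay below the other libraries. Means of 25.1 ± 5.53 and 28.2 ± 0.269 CPM gave a log2 fold change of −0.17 (standard error 0.33, adjusted p = 0.968) and an interval from 0.521-fold to 1.51-fold. The sign turned when BcorΔE9-10 replicate 2 was left out (0.043), and the estimate was −0.41 without BcorΔE9-10 replicate 1.

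*Snhg5*, the host of the *Snord50* pair whose sequences are given above, had 41.8 and 59.0 CPM in BcorΔE9-10 and 76.2 and 56.5 CPM in BcorWT (226, 362, 261 and 300 counts). The lowest library was BcorΔE9-10 replicate 1 and the highest was BcorWT replicate 1, while the second libraries of both groups were nearly level. Its log2 fold change of −0.39 (standard error 0.34, adjusted p = 0.945) came from means of 50.4 ± 12.2 and 66.3 ± 14.0 CPM, and its interval ran from 0.439-fold to 1.32-fold. The estimate was lower in BcorΔE9-10 with each library left out, from −0.66 without BcorΔE9-10 replicate 2 to −0.17 without BcorWT replicate 1.

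*Snhg6*, the host of *Snord87*, had 10.5 and 27.2 CPM in BcorΔE9-10 and 37.7 and 4.33 CPM in BcorWT (57, 167, 129 and 23 counts). The 2 BcorWT libraries were the highest and the lowest of the 4, an 8.70-fold spread that was wider than the same spread of 99.0% of genes, and the BcorΔE9-10 pair differed 2.58-fold, wider than 95.4% of genes. Means of 18.9 ± 11.8 and 21.0 ± 23.6 CPM gave a log2 fold change of −0.12 (standard error 0.86, adjusted p = 0.994) and the widest interval of the 7 genes, from 0.231-fold to 3.64-fold. The estimate was −0.99 without BcorWT replicate 2 and 2.12 without BcorWT replicate 1, where the unadjusted edgeR p was 0.00786 and the adjusted p 0.0820. The interval from all 4 libraries gives the changes that the data allow for *Snhg6*, and the smallest detectable difference was not tested.

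*Malat1*, the speckle RNA, had 1947 and 1920 CPM in BcorΔE9-10 and 2185 and 2061 CPM in BcorWT (10537, 11777, 7483 and 10953 counts). Both BcorΔE9-10 libraries were below both BcorWT libraries, and the libraries within a group differed by 1.01-fold and 1.06-fold. Means were 1934 ± 19.6 and 2123 ± 87.8 CPM, with a log2 fold change of −0.13 (standard error 0.33, adjusted p = 0.974) and an interval from 0.532-fold to 1.56-fold. With 1 library left out it stayed between −0.18 and −0.10.

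*Neat1*, the paraspeckle scaffold, had 483 and 429 CPM in BcorΔE9-10 and 381 and 404 CPM in BcorWT (2613, 2633, 1303 and 2146 counts). Here both BcorΔE9-10 libraries were above both BcorWT libraries, the opposite order to its neighbour *Malat1*. Means were 456 ± 38.0 and 392 ± 16.5 CPM, with a log2 fold change of 0.22 (standard error 0.32, adjusted p = 0.961), an interval from 0.700-fold to 1.93-fold and values of 0.13 to 0.30 with 1 library left out. *Neat1* counts amounted to 24.8% and 22.4% of *Malat1* counts in BcorΔE9-10 and to 17.4% and 19.6% in BcorWT. The 3′ counts are given per gene, so the long and short forms of *Neat1* were not separated. The long form held no hexamer in its printed end, and whether both forms were primed alike was not tested.

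**Figure D3:**
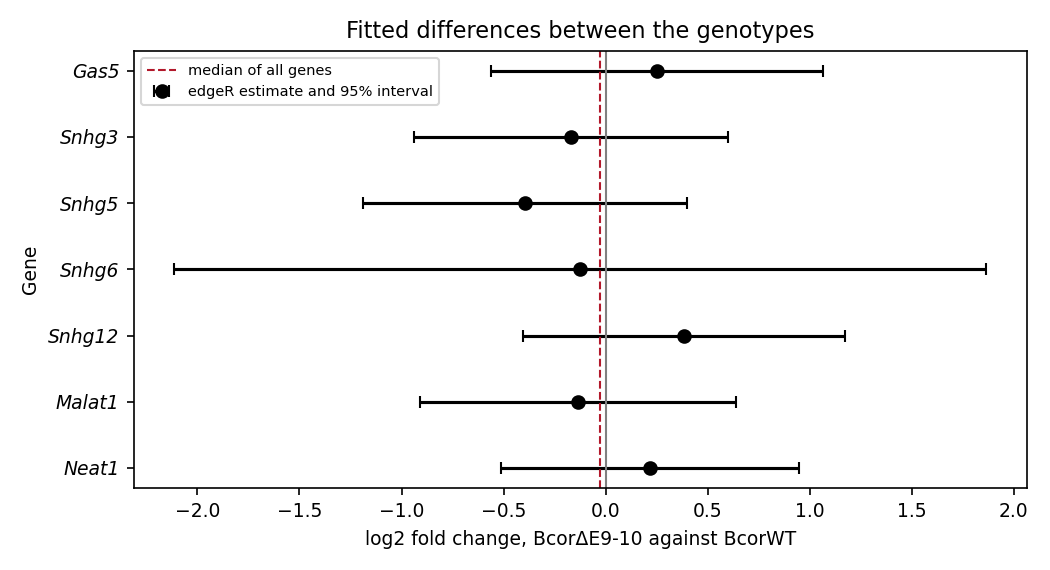
Fitted log2 fold change of BcorΔE9-10 against BcorWT for each measured gene, with 95% intervals from edgeR (n = 2 libraries per group) and a dashed line at the median of all genes. Each interval spans 0, and that of *Snhg6* is the widest.

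**Figure D4:**
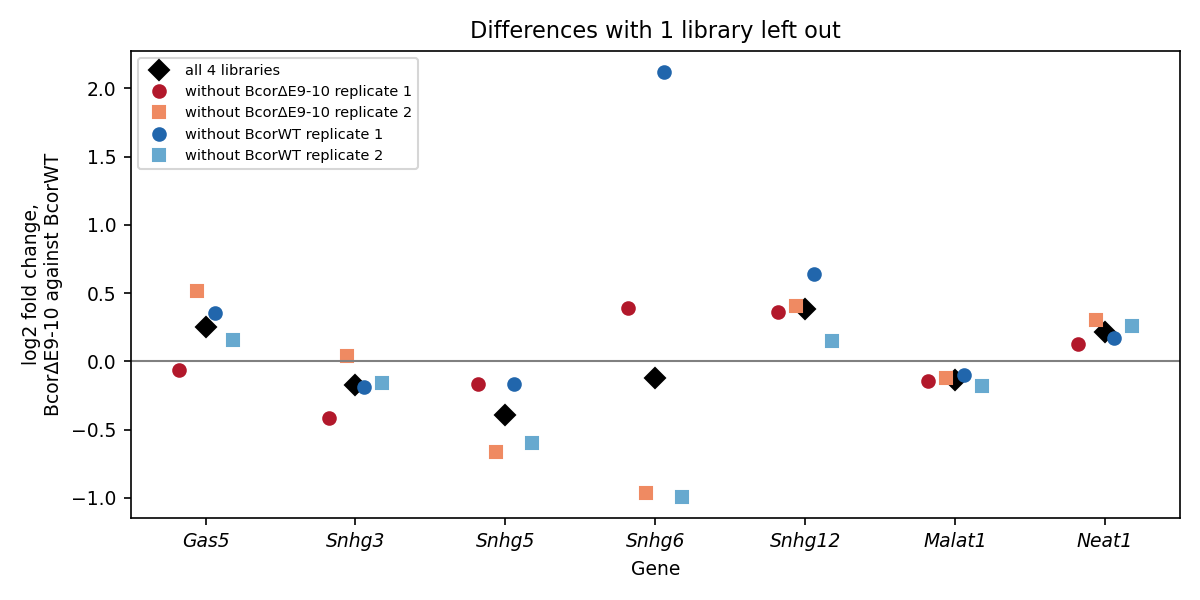
Log2 fold change of each measured gene with all 4 libraries (diamonds) and with each library left out. *Snhg6* moved between −0.99 and 2.12, *Gas5* and *Snhg3* crossed 0, and *Malat1* stayed between −0.18 and −0.10.

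The hosts showed no shared order of the libraries. BcorΔE9-10 replicate 1 was the highest of the 4 for *Gas5*, *Snhg3* and *Snhg12* but the lowest for *Snhg5*, and BcorWT replicate 1 was the highest for *Snhg5* and *Snhg6*. Summed over the 5 hosts the level was 834 and 621 CPM in BcorΔE9-10 and 710 and 580 CPM in BcorWT, most of it *Gas5*, and over the nuclear RNAs it was 2430 and 2349 CPM against 2566 and 2465 CPM.

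Several measured genes share bases with other annotated genes, and the strand setting of the authors' counting is not given in the sources used here. Without it, reads of a gene and its antisense partner cannot be told apart. *Gm37376*, a 453-base model inside *Malat1* on the opposite strand (chr19:5801941-5802393), had 3539 and 3636 counts in BcorΔE9-10 and 2530 and 3645 in BcorWT. These were 33.6%, 30.9%, 33.8% and 33.3% of the *Malat1* counts of the same libraries, a nearly constant ratio. *Mcmdc2*, the coding gene that ends in the last 127 bases of *Snhg6*, had 28 and 70 counts in BcorΔE9-10 and 47 and 20 in BcorWT. Its order across the 4 libraries was the order of *Snhg6*, with the lowest count of both in BcorWT replicate 2. *Snhg6* values are therefore uncertain as to which gene their reads came from, and how much of either count came from the shared bases was not tested. *Gm17300*, a lincRNA on the opposite strand inside *Snhg3*, had 270 and 212 counts in BcorΔE9-10 and 156 and 203 in BcorWT, more than *Snhg3* in each library, with a log2 fold change of 0.01 (standard error 0.34). *Rcc1*, which encodes the exchange factor of the nuclear transport GTPase Ran, runs through *Snhg3* on the same strand and had 569 and 721 counts against 623 and 860. Scaled to CPM its groups did not overlap, and its log2 fold change was −0.63 (standard error 0.31, adjusted p = 0.945) where that of *Snhg3* was −0.17. *Zbtb37*, a zinc finger gene that shares 428 bases with the 5′ end of *Gas5* on the opposite strand, had 21 to 43 counts.

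The snoRNAs of the hosts were counted at low levels (mature snoRNAs carry no poly-A tail, from which these libraries are primed). Of the snoRNA genes in the table, 6 lay inside a measured host. *Snord87* had 27 and 39 counts in BcorΔE9-10 and 5 and 9 in BcorWT, while its host *Snhg6* had its highest and lowest levels within BcorWT. The *Snord87* groups did not overlap, with a log2 fold change of 1.82 (standard error 0.64, adjusted p = 0.945). *Snord50a* went the other way, with 2 and 10 counts in BcorΔE9-10 and 24 and 14 in BcorWT, a difference of −2.19 on the log2 scale (standard error 0.91, adjusted p = 0.945), its groups not overlapping. The near-identical *Snord50b* overlapped between groups, at 2 and 18 counts in BcorΔE9-10 and 24 and 13 in BcorWT, with a fitted −1.45 on the log2 scale (adjusted p = 0.945). For this pair the lowest library was BcorΔE9-10 replicate 1 and the highest was BcorWT replicate 1, as for their host *Snhg5*. Neither *Snord87* nor *Snord50a* passed the adjustment over all genes, and both were named after their values were seen. *Snora73b* had 112 and 74 counts in BcorΔE9-10 and 57 and 55 in BcorWT, with a log2 fold change of 0.29 (standard error 0.45) and overlapping CPM. In *Gas5*, *Gm25789* had 19 and 17 counts in BcorΔE9-10 and 15 and 26 in BcorWT, and *Mir5117*, a symbol that the annotation gives to a snoRNA, had 5 and 10 against 9 and 12. Scaled to CPM neither overlapped between groups and both lay lower in BcorΔE9-10, at −0.56 (standard error 0.59, adjusted p = 0.946) and −0.91 (standard error 0.76, adjusted p = 0.945) on the log2 scale, where the estimate of *Gas5* was 0.25. Inside *Snhg1*, which was itself not in the table, *Gm25894*, *Gm24452* and *Snord22* were counted, with 10 to 46 counts per library.

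**Figure D5:**
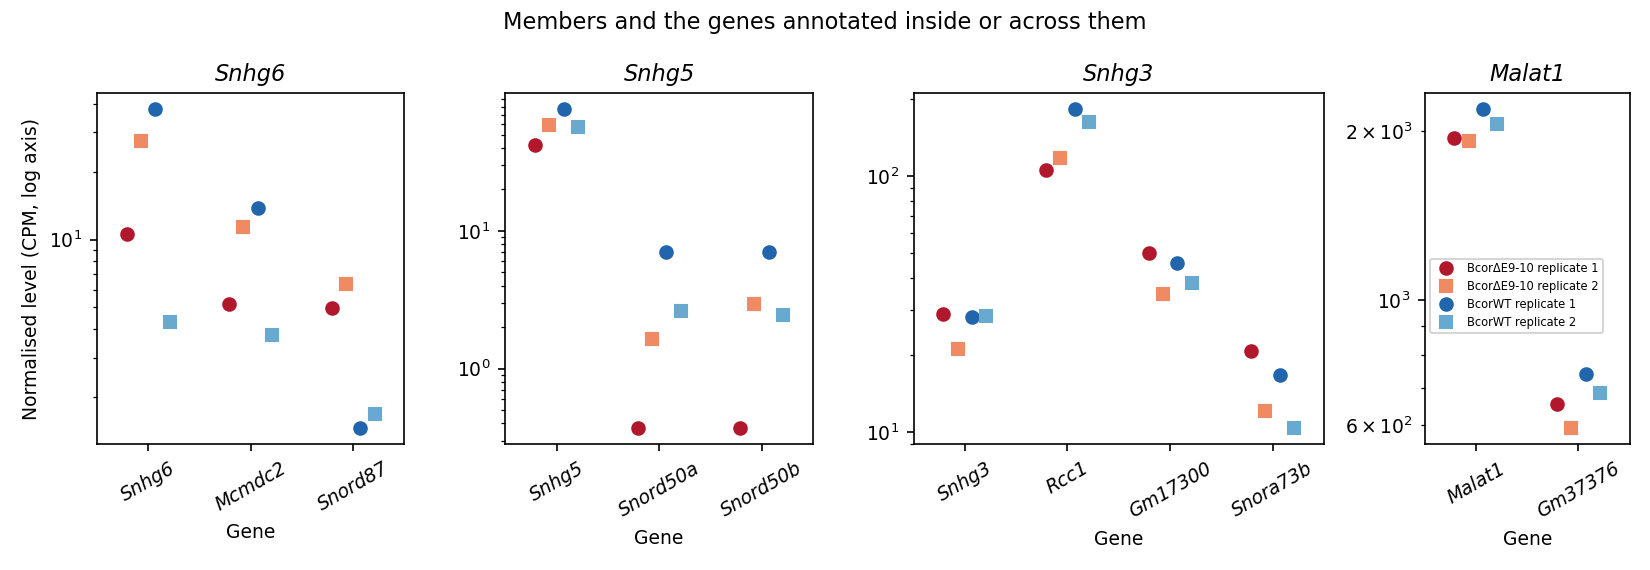
Level (CPM, log axis) in each library of *Snhg6*, *Snhg5*, *Snhg3* and *Malat1* beside genes annotated inside or across them. *Mcmdc2* follows the library order of *Snhg6* and *Gm37376* lies at about the same distance below *Malat1* in each library, whereas the *Snord87* groups do not overlap.

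Other genes of the same pathways were counted from lists. Of 12 other non-coding hosts of small RNAs in the table, 7 were higher and 5 lower in BcorΔE9-10 with a median log2 fold change of 0.07, and none differed at an adjusted p under 0.05. *Mir142hg*, the host of a miRNA of blood cells, had 154 and 166 counts in BcorΔE9-10 and 127 and 616 in BcorWT, a log2 fold change of −1.47 (adjusted p = 0.945), with its highest count in BcorWT replicate 2. Among 32 coding genes that host snoRNAs, 22 were higher and 10 lower with a median of 0.10, where 47.7% of all genes were higher. No p was under 0.05, and groups did not overlap in 9 of the 32 (28.1%, against 33.9% of all genes). *Rpl27a*, a ribosomal protein gene, had 5137 and 3600 CPM against 4016 and 4205 CPM, and *Tpt1*, the translationally controlled tumour protein gene, had 4082 and 3396 CPM against 3538 and 3023 CPM. Both overlapped between groups, and like *Gas5* both were highest in BcorΔE9-10 replicate 1.

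The machinery that acts on these RNAs gave no called gene either. For 19 snoRNP core proteins and assembly factors the median log2 fold change was −0.11, with *Nop10*, a core protein of H/ACA particles, at −0.46 (standard error 0.31) and *Dkc1*, their pseudouridine synthase, at 0.28 (standard error 0.37). For 19 nonsense-mediated decay factors it was −0.05, with the exon junction proteins *Rbm8a* at 0.23 (standard error 0.35) and *Magoh* at −0.05 (standard error 0.36). For 20 paraspeckle and nuclear speckle proteins it was 0.14, where *Hnrnpk*, an RNA-binding protein gene, had 727 and 718 CPM against 795 and 749 CPM. *Hnrnpk* (log2 fold change −0.10) did not pass the test. For 20 genes of nuclear RNA decay it was 0.26, with 12 higher and 8 lower, and the groups did not overlap in 13 of the 20 (65.0%, against 33.9% of all genes). The 2 with the highest mean CPM both lay below that median. *Exosc5*, an exosome subunit, had 111 and 70.1 CPM against 124 and 222 CPM, a log2 fold change of −0.94 (adjusted p = 0.945). *Pabpn1*, the nuclear poly-A binding protein gene, overlapped between groups with a log2 fold change of −0.22 (standard error 0.35).

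Of 10 other lncRNAs in the table, 3 had an unadjusted p under 0.05 (4.42% of all genes did), each with a negative estimate, and none passed the adjustment. *Xist*, which coats the inactive X chromosome of female cells, had 13 and 24 counts in BcorΔE9-10 and 64 and 101 in BcorWT, a log2 fold change of −2.56 (standard error 0.47, adjusted p = 0.419). Scaled, *Xist* was at 3.16 ± 1.07 CPM in BcorΔE9-10 and 18.8 ± 0.224 CPM in BcorWT (SD, n = 2). The donors were male (Bcorfl/y) and the recipients female, and the part of recipient cells in the values of these libraries was not tested. *Tsix*, the antisense partner of *Xist*, had a log2 fold change of −2.64, and reads of the pair cannot be told apart without strand. *Meg3*, an imprinted lncRNA, was at 10 and 7 counts in BcorΔE9-10 and 23 and 24 in BcorWT, −1.89 on the log2 scale (adjusted p = 0.945).

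The genes whose pattern over the 4 libraries was most like that of *Snhg5*, by Euclidean distance between centred log2 CPM, were *Epm2aip1* (distance 0.0466), *Spryd4* (0.0601) and *2610020C07Rik* (0.0760), and 84 genes lay within 0.25. For *Malat1* they were *Hnrnpk* (0.0401), *Ercc3* (0.0406) and *Polr2g* (0.0411), and 618 genes lay within 0.25. With 4 libraries such likeness is common, and it is given as a description.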

How the data were processed

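Per the study's methods and processing notes, the authors removed low-quality reads (FastQC is named), used cutadapt (1.7 in the notes) to trim the 5′ end and any poly-A tail sequence, mapped to mm10 (GRCm38) with HISAT2 and counted reads per gene with featureCounts of Subread. The deposited table holds these raw counts. In BcorΔE9-10 replicate 2 and BcorWT replicate 1 the deposited values were handled like expected counts, since *Gm4430* has values there that are not whole, and were rounded. The level above which genes were kept in the table is not given in the sources used here.

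edgeR 4.0.16 (R 4.3.3) was run on all 12067 genes with TMM scaling, low counts filtered by filterByExpr, quasi-likelihood fitting, a prior count of 0.125 and Benjamini-Hochberg adjustment. The standard error was the size of the log2 fold change over the square root of F. DESeq2 1.42.0 and limma 3.58.1 (voom) were alternatives, beside other scalings, filters, a prior count of 2, a replicate block and each library left out. The fit was tested on simulated data. Positions, biotypes and transcripts came from GENCODE M21, and promoters from RefSeq. Tables and figures used Python 3.11.15, pandas 2.3.3 and matplotlib 3.10.9.

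Totals were 3825289.5 to 6253100.5 counts, and floors cover counting error only. Groups and replicate numbers came from the labels, which give no batch. The listed genes and lists were chosen with earlier results of these data known. Every listed gene in the table was named, and of other lists up to 4 genes with an unadjusted p under 0.05 and groups that did not overlap, otherwise the 2 with the highest mean CPM. A gene that this rule named is not reported here. Genes overlapping a listed gene were added with their values in view. The same rule on marker lists named *Klf1*, *Hba-a2*, *Mcpt8*, *Prss34*, *Epx*, *Cpa3*, *S100a8*, *Ngp*, *Nkg7*, *Ighm*, *Hlf*, *Flt3* and *Gm10800*.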

Additional observations from a re-analysis of the deposited data

How the results depend on the processing

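No setting with all 4 libraries, and none with 1 library left out, gave any of the 7 genes an adjusted p under 0.05 (0 in each). Of 13 alternatives, *Snhg5*, *Snhg12*, *Malat1* and *Neat1* kept their direction in all, *Gas5* and *Snhg3* in 12 and *Snhg6* in 8. *Snhg6* (−0.12) turned to 0.0064 with library totals only, to 0.32 with the replicate block and to 0.61 with limma-voom, and ranged from −0.99 to 2.12 with 1 library left out. *Gas5* ranged from −0.063 to 0.52 and *Snhg3* from −0.41 to 0.043 in the same way. The median of the 7 genes (−0.12) was 0.22 with the replicate block and 0.22 with limma-voom, and −0.16 to 0.17 with 1 library left out. The host median ranged from −0.16 to 0.35 there, the highest without BcorWT replicate 1. The cause of these shifts was not tested. Over all genes 2 differed, against 5 with at least 10 counts in every library, 14 with the replicate block, 4 with limma-voom and 43 with DESeq2. With 1 library left out, 6 genes differed without BcorΔE9-10 replicate 1, 34 without BcorΔE9-10 replicate 2, 596 without BcorWT replicate 1 and 30 without BcorWT replicate 2, the lone library being assumed to vary like the other group. The replicate numbers did not pair the libraries, as deviations of those numbered 1 had a correlation of −0.0945. With 2 libraries per group, intervals of the 7 genes allow changes of at least 1.5-fold in 1 direction or both.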

Other observations

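A broader set of small RNAs was looked at after the values were seen. The table held 56 genes annotated as snoRNA or scaRNA, of which 27 were higher and 29 lower in BcorΔE9-10, with a median log2 fold change of −0.02. None differed at an adjusted p under 0.05, while 6 were higher and 5 lower at an unadjusted edgeR p under 0.05, together 11 of 56 (19.6%) where all genes gave 4.42%. The groups did not overlap in 27 of the 56 (48.2%), against 33.9% of all genes. Their summed level was 1062 and 1158 CPM in BcorΔE9-10 and 1068 and 751 CPM in BcorWT. *Gm22519* had the smallest p, with 291 and 516 counts in BcorΔE9-10 and 76 and 35 in BcorWT, a log2 fold change of 2.29 (standard error 0.56, adjusted p = 0.857). *Snora81* had 837 and 1332 counts in BcorΔE9-10 and 387 and 150 in BcorWT (log2 fold change 1.40), and *Rnu3a*, a gene of the U3 RNA that takes part in ribosomal RNA cleavage, was at 353 and 389 counts beside 141 and 155 (log2 fold change 0.87). *Snord14e* lay in the other direction, with 222 and 185 counts in BcorΔE9-10 and 266 and 336 in BcorWT (log2 fold change −0.98). The adjusted p of these 3 genes was 0.945.

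Of 7 late erythroid markers 4 were in the table, with a summed level of 73.0 and 69.8 CPM in BcorΔE9-10 and 19.3 and 45.9 CPM in BcorWT. *Hba-a2*, an alpha globin gene, had a log2 fold change of 1.24 (adjusted p = 0.945). Of the 12 myeloid progenitor markers 4 were higher and 8 lower, with a median log2 fold change of −0.23, and of these *Klf1*, an erythroid transcription factor gene, had an unadjusted p under 0.05, at 24 and 17 counts in BcorΔE9-10 and 1 and 4 in BcorWT (adjusted p = 0.945). Of 13 lymphoid markers 6 were in the table, with 228 and 185 CPM against 198 and 317 CPM, of 8 stem cell and Sca-1 markers 3 were in the table, with 17.7 and 18.9 CPM against 27.7 and 18.1 CPM, and the rRNA-like and RNA quality list (14 of 16) was 163972 and 161331 CPM against 325902 and 23240 CPM. *Gm10800* of that list had 105 and 96 counts in BcorΔE9-10 and 1021 and 424 in BcorWT. Of the basophil genes, *Mcpt8* had 149 and 222 counts in BcorΔE9-10 and 450 and 617 in BcorWT, and *Prss34* had 203 and 305 beside 471 and 1257, neither passing the adjustment (adjusted edgeR p of 0.419).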
